A study of Mus musculus with 34 samples.

Results

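Transcripts of 10 genes of fat cell formation and function were followed through 34 RNA sequencing libraries of cells sorted from mouse tissues. The genes were a given list of symbols, comprising the regulators Pparg, Cebpa, Ebf2 and Zfp423, the lipid-handling genes Lpl, Cd36 and Fabp4, the lipid droplet gene Plin1 and the adipokine genes Adipoq and Lep. All 10 of these, of 51826 gene identifiers in the count files, matched a single identifier each, and all 10 were among the 25705 genes with enough counts to be tested. Digested tissue was sorted for podoplanin-positive cells without CD45, CD31 or Epcam. Those that carried PDGFRA are labelled fibroblasts (25 libraries) and those that lacked it mesothelial cells (9 libraries), the sheet of cells that covers abdominal organs. Fibroblasts came from the 3 depots labelled visceral fat (omentum, mesentery and epididymal fat), the 2 labelled subcutaneous fat (inguinal and brown adipose tissue), bone, lymph node (labelled sLN), pancreas and spleen. Mesothelial cells came from the 3 visceral depots. There were 12 groups of 3 libraries, or of 2 for the pancreas and the spleen. All libraries are labelled GFP-negative, no treatment is named, and strain, age and any pooling of animals are not given in the sources used here. The labels do not say that replicates were separate animals, so the p-values reflect no more than library-to-library spread, which may be technical.

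Fat cells form from fibroblast-like progenitors. EBF2 and ZFP423 are transcription factors that mark cells committed to this fate, and PPARG and C/EBPα, the product of Cebpa, then switch on the genes of fat uptake and storage and sustain each other's expression. Lipoprotein lipase (Lpl) releases fatty acids from circulating lipoproteins, CD36 takes them up, FABP4 carries them in the cell, perilipin 1 (Plin1) coats the fat droplet, and adiponectin (Adipoq) and leptin (Lep) are hormones of mature fat cells. Mature fat cells are buoyant and fragile and are usually lost in such sorts.

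Library totals ran from 28651435 to 42335589 counts. Levels are given in CPM, counts scaled to one common library total, with totals adjusted by TMM, a method that corrects for differences in composition. Differences are log2 fold changes ± SE from edgeR's quasi-likelihood test over all 25705 genes. Calls required 2 things, an adjusted p (Benjamini-Hochberg) under 0.05 and a log2 change of at least 1 in size. Pdgfra, the gene of the sorted receptor, ran from 4.43 to 13.5 CPM in mesothelial libraries and was at least 367 CPM in fibroblasts. Summed over 15 genes of pancreatic acinar cells, transcripts reached 45006 and 215283 CPM in the 2 pancreas libraries and 914 to 5684 CPM in omentum and mesentery fibroblasts. Mesothelial libraries were uneven, with 8261, 2494 and 239 CPM in mesentery and 3177, 68.3 and 51.7 CPM in omentum. As a share of the unadjusted library total, 12 libraries held at least 1000 CPM. In bulk RNA, fewer cells of a type and less RNA per cell cannot be told apart.

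Markers of mature fat cells other than the members were low. Their 11-gene sum ran from 57.8 to 143 CPM in inguinal fibroblasts, the group with the highest library, against 15.9 to 27.2 CPM in omentum mesothelial cells. In inguinal fibroblasts most of it was Plin4, a droplet coat gene that reached 120 CPM. Lipe reached 24.8 CPM in an omentum and Aqp7 16.1 CPM in an epididymal fibroblast library, each with a count in every library. Slc2a4 and Thrsp reached 12.2 and 10.4 CPM. Cidec, which enlarges fat droplets, reached no more than 1.8 CPM in any library and had no count in 11 of 34. Retn, the resistin gene, reached 0.97 CPM, and Ucp1, the uncoupling protein of brown fat cells, reached 0.99 CPM in a brown adipose library.

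The start regions of 3 members are shown because Pparg and Cd36 moved together across fibroblasts of the 9 tissues while Cebpa did not follow them there. The RefSeq promoter table (GRCm38.p6) held entries for 7 of the 10 genes. Lpl, Fabp4 and Ebf2 had none. The 250 bases before the start are printed 5′ to 3′ on the strand of the gene, with matches to a C/EBP motif (TTNCNNAA, either strand) in capitals. The Pparg region is that of the third of 3 listed starts, chr6:115421816-115422065 on the plus strand, inside the gene. The Cd36 region is chr5:17835897-17836146 on the minus strand, and that of Cebpa is chr7:35119043-35119292 on the plus strand.
Pparg: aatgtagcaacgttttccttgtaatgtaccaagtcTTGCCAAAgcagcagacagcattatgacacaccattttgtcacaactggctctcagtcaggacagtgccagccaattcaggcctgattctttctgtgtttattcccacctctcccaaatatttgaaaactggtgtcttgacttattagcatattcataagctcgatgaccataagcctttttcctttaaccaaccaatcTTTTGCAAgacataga
Cd36: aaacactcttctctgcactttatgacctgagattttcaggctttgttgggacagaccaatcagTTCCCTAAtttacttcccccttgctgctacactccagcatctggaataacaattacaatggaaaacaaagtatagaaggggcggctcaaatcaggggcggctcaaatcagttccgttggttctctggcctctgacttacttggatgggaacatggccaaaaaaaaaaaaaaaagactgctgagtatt
Cebpa: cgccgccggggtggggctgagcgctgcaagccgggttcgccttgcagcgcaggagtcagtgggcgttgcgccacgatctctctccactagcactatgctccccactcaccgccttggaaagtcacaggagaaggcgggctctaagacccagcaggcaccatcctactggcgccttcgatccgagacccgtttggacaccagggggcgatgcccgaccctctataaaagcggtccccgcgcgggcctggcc
The C/EBP letters occurred at positions -215 to -208 and -16 to -9 before this Pparg start and at -187 to -180 before that of Cd36. They were not in the Cebpa window, and 36.8% of 32817 promoter windows of the same length held them. This Pparg start was chosen for display after its matches were seen. The same letters also occurred in windows of Zfp423, Adipoq, Plin1 and Lep, but not before the other Pparg starts. Cebpa was thus the only one of the 7 genes without them. It had 1 window, however, where Pparg had 3 and Zfp423 had 2. The 3 other motifs were searched on both strands. The PPAR direct repeat (a pair of AGGTCA units with 1 base between them), present in 0.0335% of windows, and the EBF palindrome (TCCC and GGGA with 2 bases between them), present in 0.78%, matched none of the windows of the 7 genes. The single nuclear receptor unit AGGTCA, which every direct repeat contains and 14% of windows hold, matched on the opposite strand at -228 to -223 in Cd36 (as TGACCT), and also before the other two Pparg starts and a Zfp423 start. Such matches describe letters, not binding. Counts are per gene, so reads from the starts of Pparg could not be separated.

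**Figure D1:**
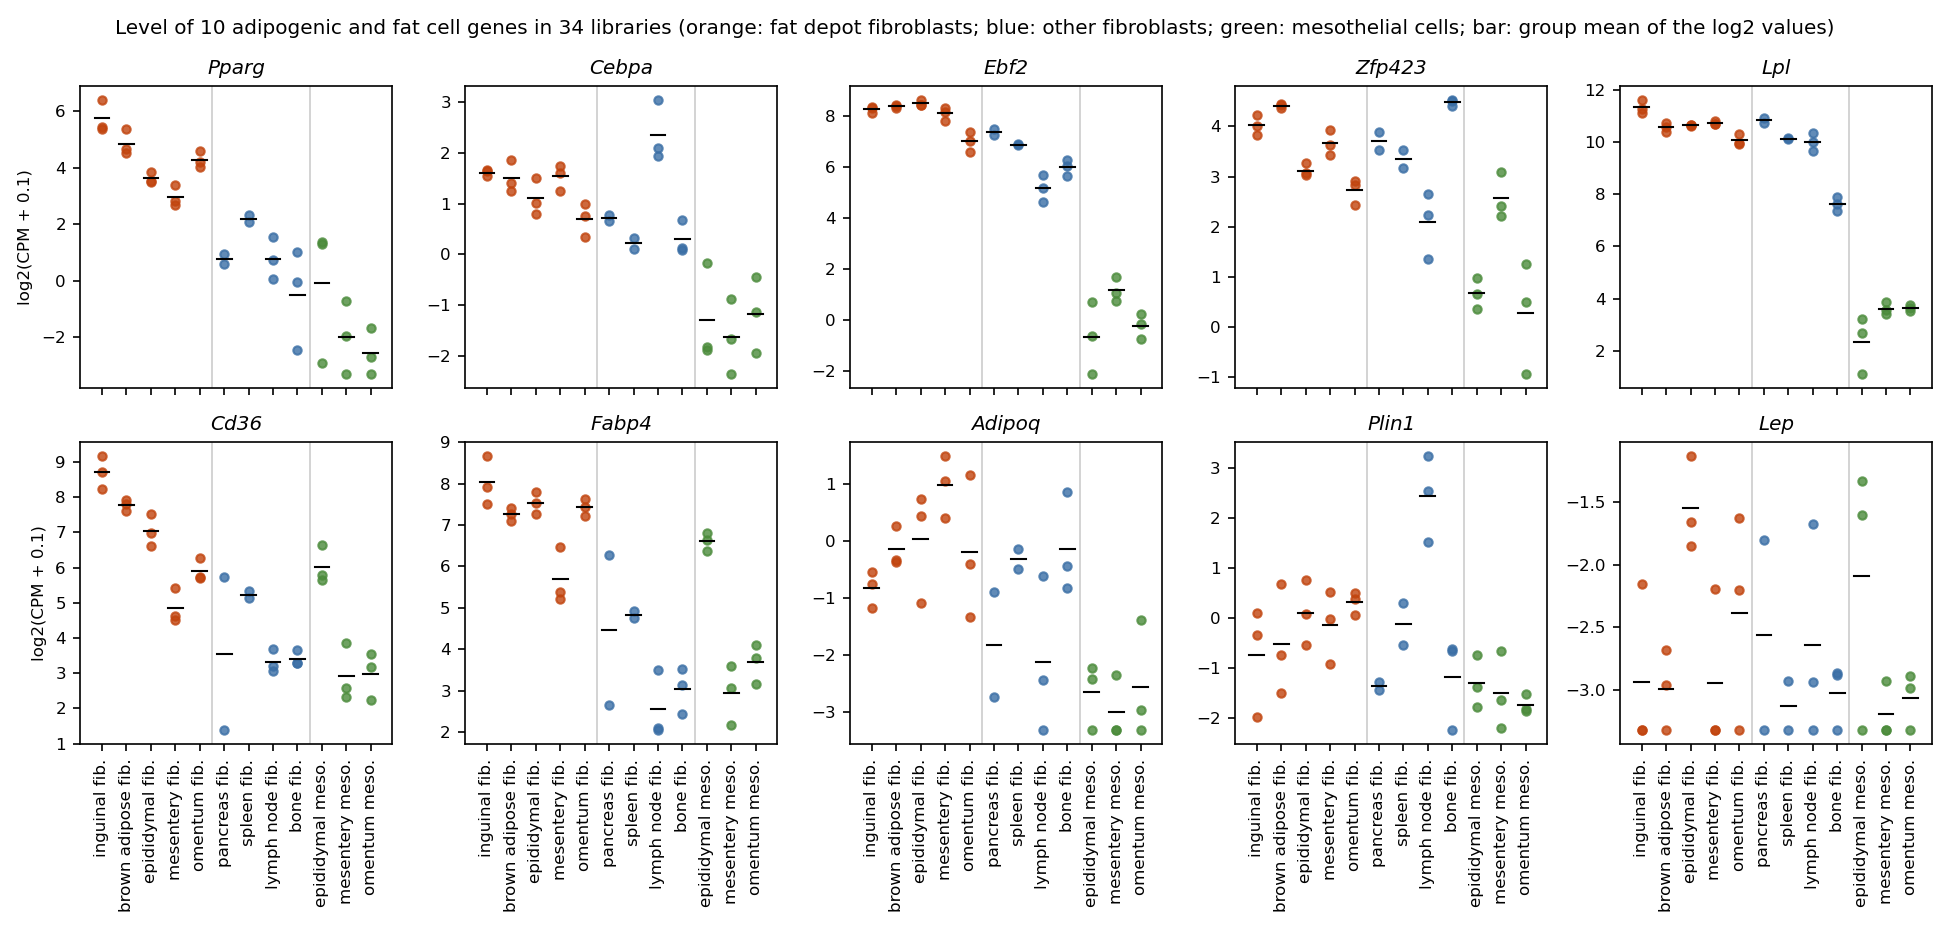
Level of each of the 10 genes in every library, as log2(CPM + 0.1), with points for libraries, short bars for the mean of the log2 values, and fat depot fibroblasts, other fibroblasts and mesothelial cells in orange, blue and green. Lpl and Ebf2 separate mesothelial cells from all fibroblasts, whereas Cd36 and Fabp4 in epididymal mesothelial cells lie above the other mesothelial groups.

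Pparg (chromosome 6, 115360951 to 115490399), the nuclear receptor that drives fat cell differentiation, was graded over the fibroblasts of the 9 tissues. Inguinal fibroblasts held 41.2, 85.2 and 44 CPM and brown adipose fibroblasts 25, 41.9 and 22.7 CPM. Omentum fibroblasts held 16.3, 18.3 and 24.2 CPM, epididymal 11.6, 11.3 and 14.3, and mesentery 10.5, 6.24 and 6.98. The remaining tissues were lower, with the spleen at 4.87 and 4.15 CPM, lymph node at 2.8, 0.932 and 1.56, pancreas at 1.84 and 1.4, and bone at 0.854, 1.93 and 0.079. Every library of a fat depot thus lay above every library of the other tissues. Of the 36 pairs of tissues, 23 were called for Pparg, where 11.5% of all combinations of gene and pair were called. Inguinal fibroblasts differed from 7 of the 8 other tissues, all but brown adipose (log2 difference 0.93 ± 0.47, adjusted p = 0.218). No step between neighbours in the order of the 9 tissue means was called, with steps of 0.11 to 1.36 on the log2 scale, the widest from spleen to lymph node (adjusted p = 0.162).

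Ebf2 (chromosome 14, 67233292 to 67430918), a factor of committed preadipocytes, was high in fibroblasts of 4 fat depots. Epididymal fibroblasts held 343, 345 and 397 CPM, brown adipose 338, 321 and 343, inguinal 314, 280 and 325, and mesentery 225, 284 and 318. Omentum fibroblasts stood apart from these depots, at 96.8, 129 and 167 CPM, below pancreas fibroblasts at 181 and 153 CPM on average and close to spleen at 118 and 116. Bone held 77.4, 65.3 and 49.2 CPM and lymph node 35.7, 24.3 and 51.3. The lymph node level was called lower than that of 7 of the 8 other tissues, with bone as the exception (adjusted p = 0.0657). Of 36 pairs 22 were called. On the opposite strand 5 noncoding genes overlap Ebf2, the highest at 3.83 CPM, and the strand used in counting is not stated.

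Zfp423 (chromosome 8, 87661810 to 87959595), a zinc finger factor that promotes the preadipocyte state, followed another order. Its highest levels were in bone, at 23, 21.1 and 22.7 CPM, and in brown adipose fibroblasts, at 21.3, 20.4 and 21.6 CPM, which did not differ (adjusted p = 0.92). Inguinal fibroblasts held 14.1, 16 and 18.6 CPM, and the lowest groups were omentum at 7.47, 5.3 and 7 CPM and lymph node at 2.46, 4.63 and 6.22 CPM. Bone was thus highest for this regulator and lowest for Pparg. Bone libraries also held the most skeletal muscle transcripts, with a 12-gene sum of 567 to 7263 CPM against at most 37.8 CPM elsewhere, and the part of these in the Zfp423 level was not tested. Of 36 pairs 13 were called for Zfp423, and bone exceeded omentum, epididymal, lymph node and spleen fibroblasts.

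Cebpa (chromosome 7, 35119293 to 35121928), the partner of Pparg in differentiation, was low throughout. Lymph node fibroblasts held 3.75, 4.15 and 8.18 CPM, above every library of the 8 other tissues. Inguinal fibroblasts held 3.02, 3.05 and 2.8 CPM, mesentery 2.94, 2.29 and 3.25, brown adipose 3.51, 2.55 and 2.26, and the other 5 tissues between 0.961 and 2.73 CPM. Lymph node was called higher than omentum, epididymal, bone, pancreas and spleen fibroblasts (absolute log2 difference 1.34 to 2.32), but not than inguinal (adjusted p = 0.106), mesentery (0.0761) or brown adipose (0.066). A noncoding antisense gene that overlaps Cebpa reached at most 0.684 CPM.

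Lpl (chromosome 8, 68880491 to 68907448) was the most abundant member per kilobase in every fibroblast group. Inguinal fibroblasts held 2203, 3149 and 2463 CPM, and pancreas, mesentery, epididymal and brown adipose fibroblasts averaged between 1518 and 1820 CPM. Spleen, omentum and lymph node averaged 1118 ± 30.5, 1075 ± 164 and 1047 ± 259 CPM (SD, n = 2, 3 and 3). Bone was the exception, at 240, 200 and 165 CPM. It lay below all 8 other tissues and was called lower than each, by an absolute log2 difference of 2.37 (lymph node, adjusted p = 3.01e-08) to 3.69 (inguinal, adjusted p = 8.35e-12). Only 3 further pairs were called, each with inguinal fibroblasts, against omentum, lymph node and spleen.

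Cd36 (chromosome 5, 17781690 to 17888801), the fatty acid receptor, spanned a wider range. Inguinal fibroblasts held 300, 576 and 422 CPM, brown adipose 193, 241 and 222, and epididymal 185, 98 and 126. Omentum held 52, 52.6 and 76.7 CPM, mesentery 43, 24.4 and 22.7, and spleen 40 and 34.9. Bone and lymph node libraries were low, between 8.19 and 12.7 CPM. The means thus differed by more than an order of magnitude between inguinal fat and lymph node (log2 difference 5.44 ± 0.58). The 2 pancreas libraries disagreed, with 2.5 and 53.1 CPM.

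Fabp4 (chromosome 3, 10204088 to 10208576), the fatty acid carrier, resembled Cd36 with a higher omentum. Inguinal fibroblasts held 182, 407 and 240 CPM, epididymal 221, 184 and 154, omentum 173, 150 and 199, and brown adipose 153, 171 and 137. Mesentery was lower than these 4 depots, at 88.2, 41.8 and 37.3 CPM. Spleen held 26.7 and 30.3 CPM, bone 5.34, 8.69 and 11.4, and lymph node 11.2, 4.18 and 4.02. Again the pancreas libraries disagreed, at 6.17 and 76.9 CPM. Of 36 pairs 24 were called for Fabp4 and 19 for Cd36. Without pancreas replicate 2, Cd36 was called in 30 pairs.

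Cd36 and Fabp4 are also expressed by capillary endothelium, and Fabp4 by macrophages, so their markers are given beside them. In the pancreas library with the higher values, Pecam1 was 50.9 CPM, Cdh5 14.2 CPM and the macrophage marker Lyz2 142 CPM. In the other they were 1.05, 0.662 and 6.62 CPM. The 12-gene macrophage sums were 528 and 17.4 CPM, and the endothelial sums 526 and 196 CPM. Their part in the pancreas levels was not tested. In omentum fibroblasts the macrophage sum was 435 to 590 CPM, mostly Cd74, against 11.5 to 98.9 CPM in fibroblasts of the other fat depots. Lyz2 was 70.5, 88.5 and 85.4 CPM there and at most 30.6 CPM in those depots. Lymph node fibroblasts, low in Fabp4, had a macrophage sum of 357 to 903 CPM, also mostly Cd74. Lyz2 was only 3.13, 1.86 and 3.02 CPM in these lymph node libraries. C1qb was 0.338, 0.254 and 0.462 CPM in lymph node and 11.9, 10.9 and 15.7 CPM in omentum fibroblasts. Csf1r was 13.6, 8.92 and 16.7 CPM in lymph node and 13.7, 13.8 and 10.1 CPM in omentum fibroblasts. The part of macrophage transcripts in the omentum Fabp4 level was not tested. The endothelial sum was also higher in inguinal (304 to 417 CPM) and brown adipose fibroblasts (386 to 450 CPM) than in bone (60.4 to 105 CPM) and lymph node (66.4 to 79.9 CPM), mostly through Tek, and its part in the tissue order was not tested. Cdh5, the endothelial cadherin, averaged 2.04 CPM in inguinal and 3.79 CPM in bone fibroblasts. Ptprc, the CD45 gene, was at most 5.83 CPM in any library.

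**Figure D2:**
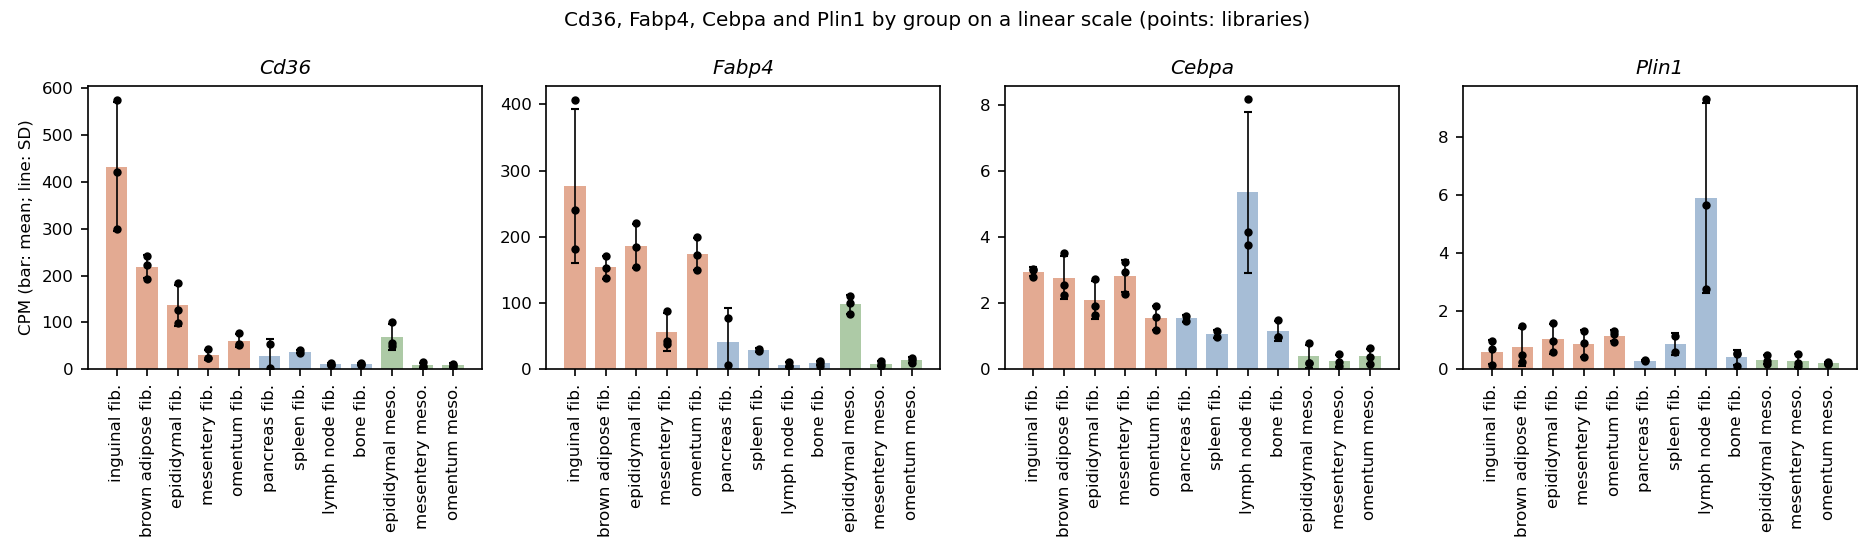
Cd36, Fabp4, Cebpa and Plin1 in CPM on a linear axis, with bars for group means, lines for the SD (n = 3, or 2 for pancreas and spleen) and points for libraries. Cd36 and Fabp4 peak in inguinal fibroblasts and are higher in epididymal than in other mesothelial cells, while Cebpa and Plin1 peak in lymph node fibroblasts.

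Plin1 (chromosome 7, 79720218 to 79732903), the droplet coat gene of mature fat cells, was near 1 CPM or below in all groups but one. Lymph node fibroblasts held 9.31, 2.77 and 5.65 CPM, above every other library. Omentum, the next group, held 1.32, 0.945 and 1.2 CPM, and the highest library of any other group had 1.6 CPM, in epididymal fibroblasts. The difference from omentum was 2.35 ± 0.47 on the log2 scale (adjusted p = 0.000373). All 8 pairs called for Plin1 were those of the lymph node with each other tissue, and none of the remaining 28 pairs was called. With each library left out in turn, 8 pairs were called each time.

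Lymph node libraries had the highest sum of transcripts of mural cells, the contractile cells of vessel walls. The 10-gene sum was 1804 to 2250 CPM there against at most 386 CPM in other fibroblasts, and Rgs5 was 523, 376 and 576 CPM. Abcc9, Des, Kcnj8, Mcam, Notch3 and Tagln also had their highest library there, but Acta2, Cspg4 and Myh11 did not. Cspg4 was 1.97, 1.67 and 1.6 CPM, against 60.6, 55.8 and 58.4 CPM in bone fibroblasts. Myh11 was 101, 105 and 58.7 CPM, against 133, 88.7 and 98.1 CPM in omentum fibroblasts. In lymph node libraries the 11-gene sum of fat cell markers was 24.9 to 32.7 CPM, within the range of the other tissues. That sum does not include Plin1. The part of mural transcripts in the Plin1 and Cebpa levels was not tested.

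The hormone genes were barely detected. Adipoq (chromosome 16, 23146536 to 23158028) was highest in mesentery fibroblasts, at 2.7, 1.96 and 1.21 CPM (112, 66 and 40 counts). Elsewhere it reached at most 2.11 CPM, in an omentum fibroblast library whose replicates held 0.658 and 0.298 CPM. Lep (chromosome 6, 29060220 to 29073877) had at most 13 counts in any library and none in 14 of 34. A count of 0 allows up to 3 counts, or 0.0709 to 0.105 CPM by library, so differences in Lep were not detectable at this depth. Of the 36 tissue pairs 3 were called for Adipoq, each with mesentery on the higher side, and none for Lep.

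Tested over the 9 tissues together, 9 of the 10 members were called, all but Lep (adjusted p = 0.306), where 44.0% of all genes were called. The range of tissue effects was 5.87 for Pparg, 5.44 for Cd36, 5.42 for Fabp4, 4.34 for Plin1, 3.69 for Lpl, 3.29 for Ebf2, 2.33 for Zfp423 and 2.32 for Cebpa on the log2 scale. The median range over the 10 members was 3.72, against 1.82 over all genes tested. Adipoq had a range of 3.16 (adjusted p = 0.0063) and was not called by DESeq2 (adjusted p = 0.12).

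Fibroblasts of the 5 fat depots were then compared with those of the 4 other tissues, each tissue weighted equally. Of the 10 members 6 were called higher in fat depots and none lower, where 2.86% of all genes were called higher and 5.44% lower. The master regulator Pparg rose most, by 3.41 ± 0.29 (adjusted p = 3.72e-10), followed by Fabp4 (3.24 ± 0.28), Cd36 (2.70 ± 0.29) and Ebf2 (1.69 ± 0.14). Adipoq (1.17 ± 0.41, adjusted p = 0.0247) and Lpl (1.01 ± 0.13, adjusted p = 4.78e-07) passed narrowly. Cebpa (0.42 ± 0.20, adjusted p = 0.15) and Zfp423 (0.17 ± 0.15, adjusted p = 0.5) were not called, nor was Plin1 (-0.01 ± 0.34), whose 95% interval runs from -0.70 to 0.67. The median over the 10 members was 1.09, against -0.07 over all genes tested. Pparg was the only member whose 15 fat depot libraries all lay above the 10 others, a pattern held by 0.0895% of all genes.

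Without the 2 pancreas libraries, an alternative chosen after the values were seen, Cd36 was higher by 2.97 ± 0.19 and Fabp4 by 3.76 ± 0.20. In that fit Adipoq was no longer called (0.92, adjusted p = 0.0908), nor was it without omentum fibroblast replicate 3, pancreas replicate 1, lymph node replicate 2 or spleen replicate 1 (adjusted p 0.0533 to 0.115). DESeq2 did not call it either (adjusted p = 0.0716). Lpl was no longer called (lowest value 0.97) without brown adipose replicate 1, bone 3, inguinal 2, mesentery fibroblast 1, omentum fibroblast 3, pancreas 2 or lymph node 3. The 11-gene sum of fat cell markers was 18.6 to 143 CPM in fat depot and 9.38 to 39.2 CPM in other fibroblasts, and its part in these differences was not tested.

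**Figure D3:**
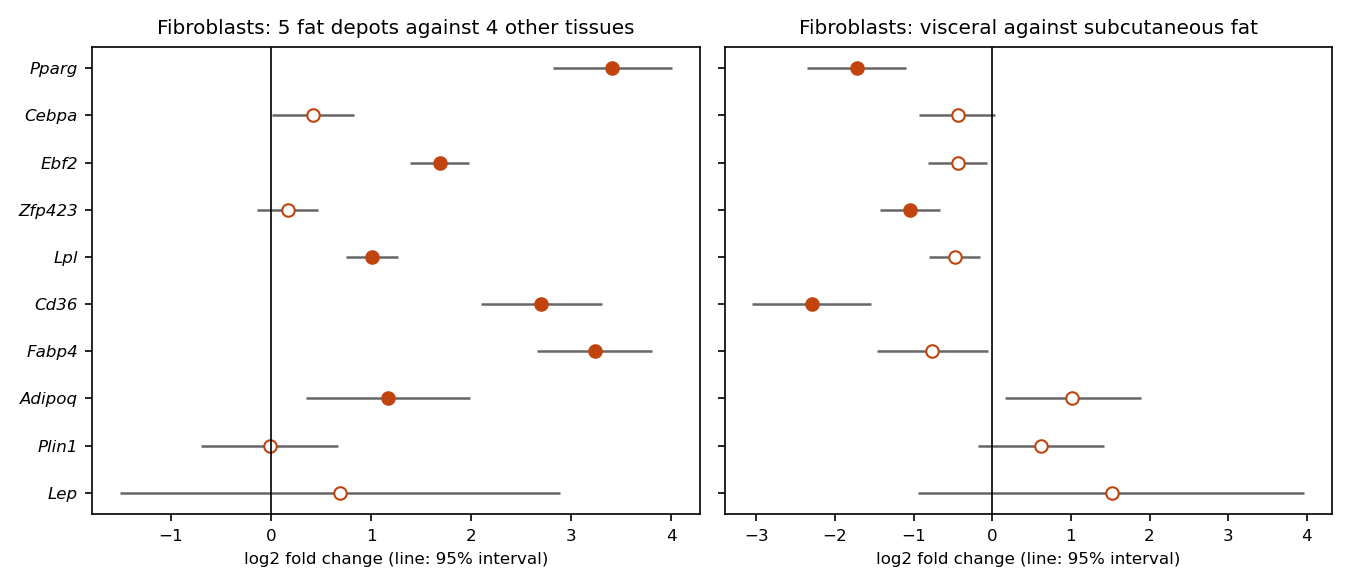
Log2 fold change of each gene between fibroblasts of 5 fat depots and 4 other tissues (left) and of visceral and subcutaneous fat (right), with 95% intervals as lines, filled points for called and open points for uncalled genes. In all, 6 genes are called higher in fat depots, and Pparg, Cd36 and Zfp423 are called lower in visceral fat.

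Among fat depots, visceral fibroblasts (9 libraries) held less of 3 members than subcutaneous fibroblasts (6 libraries), where 3.94% of all genes were called lower. None was called higher (4.29% of all genes). Cd36 was lower by -2.29 ± 0.37 (adjusted p = 4.64e-05) and Pparg by -1.72 ± 0.31 (adjusted p = 7.56e-05). For Cd36, every visceral library (22.7 to 185 CPM) lay below every subcutaneous library (193 to 576 CPM), as did 2.04% of all genes. For Pparg the highest visceral library had 24.2 CPM and the lowest subcutaneous library 22.7 CPM. Zfp423 was lower by -1.05 ± 0.19 (adjusted p = 6.84e-05), and DESeq2 put it under the fold limit (-0.97), as did leaving out epididymal mesothelial replicate 1, inguinal 3, mesentery mesothelial 1 or omentum fibroblast 2 (-0.92 to -0.99). Fabp4 (-0.76 ± 0.34, adjusted p = 0.149), Ebf2 (-0.44 ± 0.18, adjusted p = 0.103), Cebpa (-0.44 ± 0.24, adjusted p = 0.227) and Lpl (-0.48 ± 0.16, adjusted p = 0.0396) were not called. Adipoq (1.02 ± 0.43, adjusted p = 0.098) and Plin1 (0.62 ± 0.39, adjusted p = 0.323) had estimates in the other direction and were not called. Without omentum fibroblast replicate 2, Adipoq was called higher (1.25, adjusted p = 0.0306). The median over members was -0.46, against -0.10 over all genes.

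The inguinal depot is white fat and the brown depot burns fat for heat. No member was called between their fibroblasts, where 0.704% of all genes were called. The largest estimates were those of Cd36 (0.98 ± 0.56, adjusted p = 0.777), Pparg (0.93 ± 0.47, adjusted p = 0.687), Fabp4 (0.85 ± 0.53, adjusted p = 0.825) and Lpl (0.78 ± 0.25, adjusted p = 0.23), all toward inguinal. The 3 and 3 libraries did not overlap for 5 members (Lpl, Cd36 and Fabp4 higher in inguinal, Zfp423 and Adipoq lower), where 9.90% of all genes did not. In edgeR 1 member, Lpl, had an unadjusted p under 0.05, and DESeq2 called 0 members.

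Mesothelial cells were compared with fibroblasts of the same depot. Of the 10 members 9 were called lower in omentum mesothelial cells (8.79% of all genes were called lower), 8 in mesentery (7.53%) and 6 in epididymal cells (8.16%). None was called higher, where 8.10%, 10.8% and 16.6% of all genes were. Ebf2, Lpl, Pparg, Cebpa, Zfp423 and Adipoq were lower in all 3 depots. The median over the members was -3.14, -3.13 and -2.52, against -0.09, 0.09 and 0.33 over all genes, so the epididymal values are read against an upward shift of all genes.

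Lpl and Ebf2 were far lower in the mesothelial cells of all 3 depots. Lpl was 13.6, 12.3 and 11.6 CPM in omental mesothelial cells, 14.7, 10.6 and 11.7 in mesentery and 6.29, 2.06 and 9.17 in epididymal mesothelial cells. No fibroblast library of any tissue was below 165 CPM. Its change was -6.43 ± 0.26 in omentum, -7.10 ± 0.26 in mesentery and -8.08 ± 0.27 in epididymal fat (adjusted p at most 2.22e-16). Ebf2 was at most 3.07 CPM in mesothelial cells and at least 24.3 CPM in fibroblasts, with changes of -7.35 ± 0.38, -6.95 ± 0.32 and -8.94 ± 0.39. Cebpa was the third member without overlap between the 9 mesothelial (0.0938 to 0.791 CPM) and 25 fibroblast libraries (0.961 to 8.18 CPM), a pattern that 1.78% of all genes showed in this direction. Its changes were -2.03 ± 0.53, -3.50 ± 0.58 and -2.54 ± 0.52.

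Pparg was nearly absent from omentum mesothelial cells (0.211, 0 and 0.0527 CPM) and mesentery mesothelial cells (0.499, 0 and 0.156 CPM). Epididymal mesothelial cells held 2.33, 0.0317 and 2.51 CPM, so replicate 2 stood apart from the other two. From omentum to mesentery to epididymal fat the change was -7.90 ± 1.43, -5.02 ± 0.90 and -2.89 ± 0.55. Zfp423 was 0.423, 1.32 and 2.29 CPM in omentum and 1.88, 1.49 and 1.19 CPM in epididymal mesothelial cells. In mesentery mesothelial cells it was higher, at 8.46, 4.52 and 5.25 CPM, and its change there was -1.06 ± 0.30 (adjusted p = 0.00743) against -2.24 ± 0.35 and -2.51 ± 0.34 in the other depots. Without mesentery mesothelial replicate 2 or 3 or mesentery fibroblast replicate 3, the mesentery change was not called (-0.89 to -0.96).

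**Figure D4:**
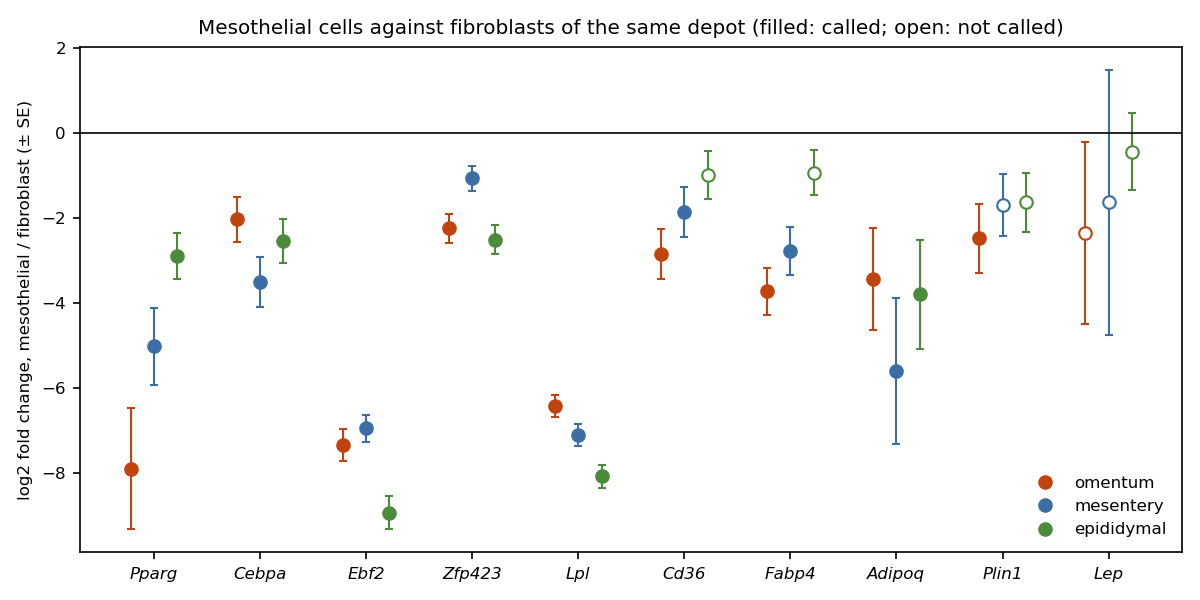
Log2 fold change of mesothelial cells against fibroblasts of the same depot, with SE, for the 10 genes in omentum, mesentery and epididymal fat (n = 3 libraries per group), filled where called. Epididymal Cd36 and Fabp4 lie near -1 and are open, while Lpl and Ebf2 lie below -6 in all 3 depots.

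Among mesothelial cells, Cd36 and Fabp4 were highest in epididymal fat. Epididymal mesothelial cells held 100, 49.8 and 55.3 CPM of Cd36 and 99.8, 111 and 82.5 CPM of Fabp4. Omentum mesothelial cells held 11.6, 4.63 and 8.92 CPM of Cd36 and 17.2, 8.79 and 13.8 CPM of Fabp4. Mesentery mesothelial cells held 5.85, 4.93 and 14.3 CPM of Cd36 and 4.44, 8.25 and 12 CPM of Fabp4. Every epididymal mesothelial library thus exceeded every other mesothelial library in both genes. Between mesothelial cells of the 3 depots both were called, with a range of 3.04 for Cd36 (adjusted p = 0.000352) and 3.57 for Fabp4 (adjusted p = 6.65e-05), as were 6 members in all where 12.3% of genes were called. The others were Pparg (4.36), Zfp423 (2.14), Ebf2 (1.60) and Lpl (1.08). Ebf2 was not called without mesentery mesothelial replicate 1 (1.24, adjusted p = 0.105), nor Lpl without epididymal mesothelial replicate 2 (0.69).

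Against epididymal fibroblasts, Cd36 changed by -0.99 ± 0.57 (adjusted p = 0.193) and Fabp4 by -0.93 ± 0.53 (adjusted p = 0.195), and neither was called. For Fabp4 the 3 mesothelial libraries lay below the 3 fibroblast libraries, while for Cd36 they overlapped. Fitted on these 6 libraries alone, both were called lower (-1.12, adjusted p = 0.0169, and -1.07, adjusted p = 0.0017), and also without the pancreas libraries (-1.11 and -1.07). In the omentum the same genes were lower by -2.85 ± 0.59 and -3.72 ± 0.55, and in the mesentery by -1.85 ± 0.59 and -2.77 ± 0.56. The mesentery change of Cd36 was not called without mesothelial replicate 1 or 2 or fibroblast replicate 1 (adjusted p 0.0866 to 0.124).

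Endothelial markers did not move as one. Pecam1, the CD31 gene, was 25.6, 10.1 and 15.8 CPM in epididymal mesothelial cells and at most 9.19 CPM in the other mesothelial libraries. It was 25.8, 10.8 and 23 CPM in epididymal fibroblasts. Cdh5 was 8.68, 4.78 and 3.58 CPM in epididymal mesothelial cells, 9.84, 3.83 and 4.85 CPM in epididymal fibroblasts, and at most 2.66 CPM in the other mesothelial libraries. Gpihbp1, a capillary protein that binds lipoprotein lipase, was 10.2, 6.74 and 5.97 CPM there against at most 1.12 CPM in the other mesothelial libraries. Kdr, the VEGF receptor gene, went the other way among mesothelial cells, at 43.2, 42.3 and 37.5 CPM in epididymal libraries against 67.3 to 77.9 CPM in mesentery, and it was at most 5.84 CPM in epididymal fibroblasts. Tek was at most 9.34 CPM in epididymal mesothelial cells and at least 342 CPM in epididymal fibroblasts. The whole 12-gene endothelial sum overlapped between the mesothelial groups, at 339 to 476 CPM in epididymal, 350 to 420 CPM in mesentery and 325 to 359 CPM in omentum cells, mostly through Esam. The macrophage sum of epididymal mesothelial cells, 110 to 220 CPM, was the lowest of the 3 mesothelial groups, a sum led by Cd74. Cd74 was 120, 55.2 and 104 CPM in epididymal and at least 579 CPM in the other mesothelial libraries. Csf1r was 46.9 to 59.2 CPM in epididymal, 85.1 to 88.8 CPM in mesentery and 26.6, 53.9 and 61.5 CPM in omentum mesothelial cells. C1qb was 2.76, 0.348 and 4.04 CPM in epididymal, 0.95, 0 and 0.938 CPM in mesentery and 7.26, 1.96 and 7.71 CPM in omentum cells. Adgre1 was 3.33, 0.0317 and 1.21 CPM in epididymal, 0.38, 0.0316 and 0.156 CPM in mesentery and 1.73, 0.193 and 1.08 CPM in omentum cells. Lyz2 was 22.8, 3.23 and 23.1 CPM in epididymal, 6.75, 0.379 and 7.47 CPM in mesentery and 35.1, 13.1 and 41.8 CPM in omentum cells. The part of endothelial and macrophage transcripts in the Cd36 and Fabp4 levels was not tested. Pdgfra was at 13.5, 10.2 and 11.5 CPM in epididymal and 11.5, 12 and 11.7 CPM in omentum mesothelial cells. In mesentery mesothelial cells it was lower, at 7.48, 4.43 and 7.91 CPM. Fbn1, another fibroblast gene, was highest in the epididymal group (236 to 267 CPM, against 103 to 203 CPM). Lum was highest in mesentery (202 to 265 CPM, against 22.1 to 42 CPM). Lpl, the most abundant member in fibroblasts, was lowest in the epididymal group. The part of fibroblast transcripts in the Cd36 and Fabp4 levels was not tested.

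Whether the difference between cell types itself varied between depots was tested with an interaction term. It was called for 5 members, where 10.9% of all genes were called. These were Pparg (range of the 3 depot effects 5.01, adjusted p = 0.0101), Lpl (1.65, adjusted p = 0.00901), Ebf2 (1.99, adjusted p = 0.0169), Fabp4 (2.79, adjusted p = 0.0447) and Zfp423 (1.45, adjusted p = 0.0476). Lpl and Ebf2 fell furthest in epididymal fat, where Pparg and Fabp4 fell least. The calls of Fabp4 and Zfp423 were lost in 18 and 25 of the 34 fits that left out 1 library each, and that of Ebf2 without epididymal mesothelial replicate 3 or mesentery mesothelial replicate 1 (adjusted p = 0.0744 and 0.0513). Cd36 (1.86, adjusted p = 0.263) was called without either pancreas library (adjusted p = 0.0426 and 0.0408).

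Adipoq and Plin1 were low in both cell types. Adipoq changed by -3.43 ± 1.21, -5.59 ± 1.72 and -3.79 ± 1.28 in omentum, mesentery and epididymal fat and had no count in 4 of 9 mesothelial libraries. Without omentum fibroblast replicate 3 its omentum change was not called (-2.38, adjusted p = 0.117). Plin1 was called in the omentum (-2.47 ± 0.81, adjusted p = 0.0107) but not in the mesentery (-1.69 ± 0.74, adjusted p = 0.0854) or epididymal fat (-1.63 ± 0.69, adjusted p = 0.0593). DESeq2 called the epididymal change (-1.75, adjusted p = 0.0407). Its interaction was not called (adjusted p = 0.797). Plin1 ran from 0.119 to 0.531 CPM in the 9 mesothelial libraries.

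Between genes, levels were compared per kilobase of the principal transcript. In inguinal fibroblasts Lpl stood at 633 CPM per kb, Fabp4 at 308, Cd36 at 127, Ebf2 at 58.9 and Pparg at 32.1, while Zfp423 stood at 3.31 and Cebpa at 1.13. Lpl thus led by this measure, and the hormone and droplet genes Adipoq, Plin1 and Lep closed the order at 0.365, 0.214 and 0.0127 CPM per kb. In lymph node fibroblasts the order was Lpl (254), Fabp4 (7.2), Ebf2 (7.13), Cd36 (2.94), Plin1 (2.1), Cebpa (2.04), Pparg (0.998) and Zfp423 (0.904). Lymph node was the only one of the 9 fibroblast groups in which the mean of Plin1 per kb exceeded that of Pparg. In epididymal mesothelial cells Fabp4 (109) and Cd36 (20.2) led, and Lpl stood at 1.42 CPM per kb.

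The 36 other adipogenic regulators of a wider list did not all move with the members. Against fibroblasts, 14 were called lower and 4 higher in omentum mesothelial cells, 15 and 6 in the mesentery, and 15 and 5 in epididymal fat. Of all genes, 8.79% were called lower and 8.10% higher in omentum, 7.53% and 10.8% in mesentery and 8.16% and 16.6% in epididymal cells. The Ebf2 relative Ebf1 was lower by -6.62 ± 0.35, -7.91 ± 0.37 and -5.05 ± 0.32, and the mesenchymal factor gene Prrx1 by -4.20 ± 0.24, -6.37 ± 0.29 and -3.07 ± 0.22. Fgf10, a growth factor of preadipocytes, fell too (-3.37 ± 0.32, -4.03 ± 0.44 and -7.29 ± 0.52). In contrast Bmp4, a signal that commits cells to the fat lineage, was higher in all 3 depots (3.04 ± 0.27, 2.63 ± 0.26 and 2.85 ± 0.26), as was Klf5 (2.95 ± 0.46, 2.34 ± 0.42 and 4.71 ± 0.77), at a mean of 3.17 to 3.27 CPM. The median of the list was -0.79, -0.40 and -0.56.

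Between fat depots and other tissues 4 of these 36 were called higher and 1 lower, with a median of -0.06. Of all genes, 2.86% were called higher and 5.44% lower. The higher ones were Klf4 (1.43 ± 0.15), an early inducer of differentiation, Fgf10 (1.37 ± 0.16), Twist2 (1.15 ± 0.22) and Wnt10b (1.13 ± 0.34), a signal that inhibits it. Dlk1, another inhibitor, was lower (-1.28 ± 0.36), and its highest level was in spleen fibroblasts (15.2 ± 10.1 CPM, SD, n = 2). Without the pancreas libraries 8 of the list were called. In visceral against subcutaneous fat 5 were lower, led by Prrx1 (-1.33 ± 0.14), Twist1 (-2.11 ± 0.23), Wnt10b (-2.23 ± 0.35) and Fgf10 (-1.33 ± 0.20), and Sox9 was higher (1.08 ± 0.23). There 3.94% of all genes were called lower and 4.29% higher. Between inguinal and brown adipose fibroblasts Snai2 was higher (1.30 ± 0.25) and Bmp4 lower (-1.14 ± 0.27), where 0.704% of all genes were called.

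Of 42 other genes of lipid uptake and storage, 7 were called higher in fat depot fibroblasts and none lower, with a median of 0.33. The shares of all genes were 2.86% higher and 5.44% lower. They included the droplet coat genes Plin2 (1.67 ± 0.12) and Plin4 (2.54 ± 0.36), Angptl4 (1.39 ± 0.12), an inhibitor of lipoprotein lipase, and Cav1 (1.06 ± 0.13) of the caveolae. Without pancreas replicate 1, 4 of the list were called. Plin4 averaged 76.1 CPM in inguinal, 46.3 in brown adipose and 17.7 in omentum fibroblasts but 2.2 and 0.922 CPM in epididymal and mesentery fibroblasts. It was lower in visceral fat by -4.17 ± 0.38 (adjusted p = 9.06e-10), with Mgll (-1.50 ± 0.14) and Dgat2 (-1.32 ± 0.33), while Gpam (1.11 ± 0.19), Gpd1 (2.34 ± 0.43) and Fabp5 (1.42 ± 0.27) were higher. Gpd1 averaged 32.9 CPM in omentum fibroblasts and at most 1.56 CPM in the other fat depots. Rbp4 was lower in inguinal than in brown adipose fibroblasts (-1.48 ± 0.34).

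In mesothelial cells 9 of these 42 were called lower and 5 higher in the omentum, 4 and 8 in the mesentery, and 7 and 4 in epididymal fat. The shares of all genes were 8.79% lower and 8.10% higher in the omentum, 7.53% and 10.8% in the mesentery, and 8.16% and 16.6% in epididymal fat. The median was -0.42, -0.13 and -0.39. The lipoprotein receptor gene Vldlr was lower in all 3 depots (-1.49 ± 0.21, -1.89 ± 0.21 and -4.04 ± 0.21). Cav1 was higher in each (2.94 ± 0.25, 4.12 ± 0.25 and 3.47 ± 0.25), with means of 2552 to 3476 CPM in mesothelial cells. Unlike the members, this list thus had calls in both directions, as did all genes. Leaving out epididymal mesothelial replicate 1 raised its count in epididymal fat from 11 to 17.

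Likeness between genes was described by Pearson's r of group-mean log2 CPM over the 12 groups, among 11735 genes. The groups share the split between mesothelial cells and fibroblasts, which alone gives many genes a high r. Ebf2 was most like Asap2 (0.992), Rhoq (0.986) and Nav1 (0.986), and Lpl most like Rgl1 (0.989) and Larp6 (0.988). Pparg was most like the activin-binding gene Fst (0.948), Rnase10 (0.946) and Rpap3-ps2 (0.938). Cebpa followed Pdgfrb (0.956), Il1rl2 (0.949) and Ifngr1 (0.949), Zfp423 followed Scd2 (0.938), Fam171b (0.937) and Itm2a (0.936), and Plin1 followed Csf2rb2 (0.943), Ugt3a2 (0.930) and Mybbp1a (0.928). Cd36 and Fabp4 were each other's nearest gene (0.930). Next came Lrch4 (0.886) and Adam23 (0.884) for Cd36 and Adam23 (0.874) and Serpinb6a (0.866) for Fabp4. These values rest on log2 levels with a small count of 2 added before the logarithm. With 0.5 instead, Rpap3-ps2, Ifngr1, Itm2a, Ugt3a2 and Mybbp1a were no longer among the 3 genes most like their member.

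Within the 9 fibroblast groups alone, Pparg correlated with Cd36 and Fabp4 at 0.94 each and Cd36 with Fabp4 at 0.91. Ebf2 correlated with Fabp4 at 0.85 and with Pparg at 0.75. Pparg and its partner Cebpa correlated at 0.28 (0.74 over the 12 groups), and Zfp423 and Plin1 at -0.86 (0.09 over the 12 groups). These values describe 9 or 12 group means, which share library depth and tissue handling.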

How the data were processed

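Polyadenylated RNA from 34 libraries was analysed. Each deposited file holds read counts per gene, described per the file headers as reads aligning uniquely to a gene model; per the submitters' processing notes Salmon and the build GRCm38 were used, and which step gave the counts is not resolved. Positions come from GENCODE M21 (GRCm38). In R 4.3.3, edgeR 4.0.16 fitted all libraries with a coefficient per group (TMM, filterByExpr with minimum count 10, robust quasi-likelihood, Benjamini-Hochberg over all genes). Tissue pairs were adjusted over genes and all 36 pairs together. Alternatives were DESeq2 1.42.0, RLE factors, no filter, only the groups compared, a replicate block, leaving out each library, and leaving out libraries with acinar transcripts (limits on the unadjusted CPM sum) or from pancreas. Replicates were checked for copies: chi-square per degree of freedom ran from 24.8 to 359 between them, where repeated sequencing of a library gives about 1. Tests were run first on simulated data. The members and lists were chosen with earlier results of these data known. Named beside the members are up to 4 called genes per list, comparison and direction with the smallest adjusted p (shown in all 3 depots where they are named for mesothelial cells), the leading markers of other cells, and the 3 genes most like each member; some genes that this rule names are not reported here. One of 12 fat cell markers, Tusc5, matched no identifier. The limit that a count of 0 allows covers counting error only.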

Additional observations from a re-analysis of the deposited data

Results flagged for a closer look

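The mesothelial-fibroblast difference varied between the omentum, mesentery and epididymal fat for 5 of the 10 genes, by an interaction test in edgeR. The range of the 3 depot effects was 5.01 for Pparg, 1.99 for Ebf2, 1.65 for Lpl, 2.79 for Fabp4 and 1.45 for Zfp423 on the log2 scale. Pparg and Lpl kept their calls in each of the 34 fits that left out 1 library, whereas the call was lost in 2 for Ebf2, 18 for Fabp4 and 25 for Zfp423. Groups of 3 or fewer libraries were not examined for outlying libraries.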

How the results depend on the processing

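Of the values from alternatives other than leaving out 1 library, 924 stayed on their side of the threshold with the same direction or within the allowed spread, 13 moved, 18 gained and 26 lost a call, and 5 reversed; with 1 library left out the numbers were 4535, 34, 11, 69 and 23. Between inguinal and brown adipose, 181 genes became 446 with no filter and 105 with only the groups compared, and 116 to 198 with 1 library left out. Other lipid genes there went from 1 to 4 with no filter (0 to 1 with 1 library left out), and other regulators from 2 to 1 without libraries of at least 1000 or 2000 acinar CPM, with only the groups compared, and in the leave-one-out range 1 to 2. Without libraries of at least 1000 acinar CPM, members called between mesothelial depots went from 6 to 3. Without those of at least 2000, chosen after seeing the data, members of the interaction went from 5 to 3 and other regulators in the omentum from 18 to 10; other regulators in fat depots went from 5 to 8, also without the pancreas libraries. With 1 library left out, interaction members ranged from 2 to 6 and all interaction genes from 1767 to 3416, other lipid genes from 11 to 17 in epididymal mesothelial cells and from 4 to 9 in fat depots. The near-zero change of Plin1 in fat depots (-0.01) was 0.01 with RLE factors and DESeq2, 0.04 with no filter and with only the groups compared, 0.05 with the replicate block, and -0.21 to 0.13 with 1 library left out. Under leave-one-out, uncalled values also crossed 0 for Plin1 (-0.8 to 0.67) and Cebpa (-0.03 to 0.3) between inguinal and brown adipose, and for Lep there (-3.12 to 1.29), in fat depots (-0.03 to 1.83), in the mesentery (-3.47 to 1.84) and in epididymal fat (-0.7 to 0.06). The cause of these shifts was not tested. Same-numbered libraries of different groups had a median r of -0.00 (-0.28 to 0.37), and 16 of 34 were closest to their own number. Pooled over all groups, these values do not settle whether same-numbered libraries shared an animal or a digest. With the replicate block 7 members were called in epididymal fat and 4 in the interaction (Fabp4 adjusted p = 0.0602). The limit of 1000 acinar CPM removed whole groups, so it gave no value for the omentum and mesentery comparisons, the interaction, the 9 tissues, fat depots or visceral fat. At 2000 a lone library in a group is assumed to vary like the others. Depth limits Lep, with at most 13 counts in any library.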
